A study of Mus musculus with 2 samples.

Results

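Aminoacyl-tRNA synthetases join each amino acid to its transfer RNA, the step that feeds protein synthesis. The 36 genes described here were taken by name: 20 encode cytosolic enzymes or enzyme subunits and 16 encode mitochondrial enzymes. On the array, 35 of them were read by at least 1 probe set of their own, out of 18193 named genes in all. They comprised 19 cytosolic and 16 mitochondrial genes, with 73 probe sets, 1 of which was also annotated to a second gene. The expression of Dars, for the cytosolic aspartyl enzyme, was not analysed here.

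RNA came from the pancreas of male mice aged 10 weeks, and the groups differ in the diet of their C57BL/6J mothers. In the methionine-deficient group the mothers were fed a methionine-deficient diet while pregnant (methionine is an amino acid that animals must eat). In the control group they ate control diet. Male pups of both groups were weaned at 3 weeks and ate control diet from then on. The labels' protocols say that the pups had no direct treatment after birth, and the diet of the mothers between birth and weaning is not given in the sources used here. Each group's RNA was pooled and read on 1 array, so n = 1 per group, each value is a single value, and no p-value can be given. How many mice entered a pool is not given in the sources used here.

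Each compartment of the cell needs its own set of charging enzymes. Several cytosolic synthetases sit in a large multisynthetase complex held together by scaffold proteins, while others work free in the cytosol. Gars (glycine) and Kars (lysine) each make both the cytosolic and the mitochondrial form, and glutamine has only the cytosolic enzyme Qars, since mitochondria first attach glutamate and then amidate it. When an amino acid runs short, uncharged tRNA activates the kinase encoded by Eif2ak4 (GCN2), which raises translation of the transcription factor ATF4. ATF4 drives amino acid synthesis and transport genes and many cytosolic synthetase genes. The acinar cell of the pancreas is among the most active protein-making cells of the body.

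Values are linear intensities per probe set, and a gene is read through its brightest probe set. Differences are methionine-deficient minus control on the log2(intensity + 1) scale. As the only error available, the probe-set spread is given: a robust SD of a probe set's log2 difference, estimated over all genes from pairs of probe sets that read 1 gene, in 5 bins of level. From the dimmest to the brightest bin it was 0.78, 0.59, 0.41, 0.28 and 0.18. It covers probe noise within these 2 arrays, not the spread between mice or arrays. A gene passed the level filter if its mean log2 intensity over both pools reached the median of all probe sets, equal to an intensity of 150, as 11848 genes did. The filter let through 30 of the 35 synthetase genes. Where a gene has several probe sets, their agreement in direction says little by itself: over 4819 genes with 2 or more past the filter, the 2 brightest had the same direction in 52.1%, and in 51.4% of the genes of the brightest bin. They did so in 7 of 10 such cytosolic and 6 of 8 such mitochondrial synthetase genes. Counting every probe set past the filter, 5 of the 10 and 2 of the 8 had both directions.

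The markers of the labelled tissue were bright. The 5 measured acinar enzyme genes, Cpa1, Cela1, Ctrb1, Cel and Cpb1, had intensities between 139181 and 243353 in the methionine-deficient pool and between 145070 and 237669 in the control pool. Their log2 differences lay between -0.06 and 0.03, at intensities near the top of the range (highest value 266191 in the methionine-deficient pool and 263446 in the control pool), where differences can be compressed. For the marker counts that follow, 50% of all genes past the filter were lower. The 5 islet markers had a median of 0.00, and 3 of them were lower. Gcg, for glucagon, had 28591 in the methionine-deficient pool and 21772 in the control pool (log2 difference 0.39, spread 0.18), and Ins2, for insulin, gave 0.00. The 5 measured B cell and plasma cell markers were all lower, with a summed intensity of 5535 in the methionine-deficient pool against 10724 in the control pool. Of these, Cd79a (log2 difference -0.32) lay within its spread of 0.78. The 3 measured adipocyte markers were also all lower (summed intensity 12988 in the methionine-deficient pool against 15357 in the control pool), although another probe set of Fabp4 gave 0.82. Of the duct markers, 3 passed the filter and all were higher, with Krt19 (log2 difference 0.19) within its spread of 0.28. Cftr, below the filter, was lower at 46.2 in the methionine-deficient pool and 129 in the control pool. The summed intensity of these 4 duct markers was 1812 in the methionine-deficient pool against 1479 in the control pool. None of the measured markers was at 0 in either pool. In pooled tissue, fewer cells of a type and less RNA per cell cannot be told apart, and the part of these differences in the synthetase values was not tested. Transcript integrity, read as the 3' over the 5' control signal of Actb, was 1.76 in the methionine-deficient pool and 1.46 in the control pool. For Gapdh this ratio was 1.11 in the methionine-deficient pool and 0.973 in the control pool.

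No synthetase gene past the filter differed by 2-fold, 0 of 30, where 6.68% of all genes past the filter did. At 1.5-fold there were 2 (Ears2 and Hars2, both mitochondrial) against a background of 19.4%. Those shares come mainly from dimmer genes. Averaged over the level bins in which the 30 genes lie, they were 1.66% at 2-fold and 7.83% at 1.5-fold, so the synthetase counts are near the share at their own levels. A log2 difference of at least 0.32 in either direction was seen for 8 of the 30, against 41% of all genes and 25.2% at the same levels. Of those 8, 2 were among the 19 cytosolic genes (15.6% of all genes at their levels) and 6 among the 11 mitochondrial genes past the filter (41.9% of all genes at theirs). Cytosolic differences ran from -0.40 to 0.26 on the log2 scale with a median of -0.03. Mitochondrial differences ran from -0.71 to 0.83 with a median of -0.27. The median over all genes past the filter was 0.00.

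**Figure D1:**
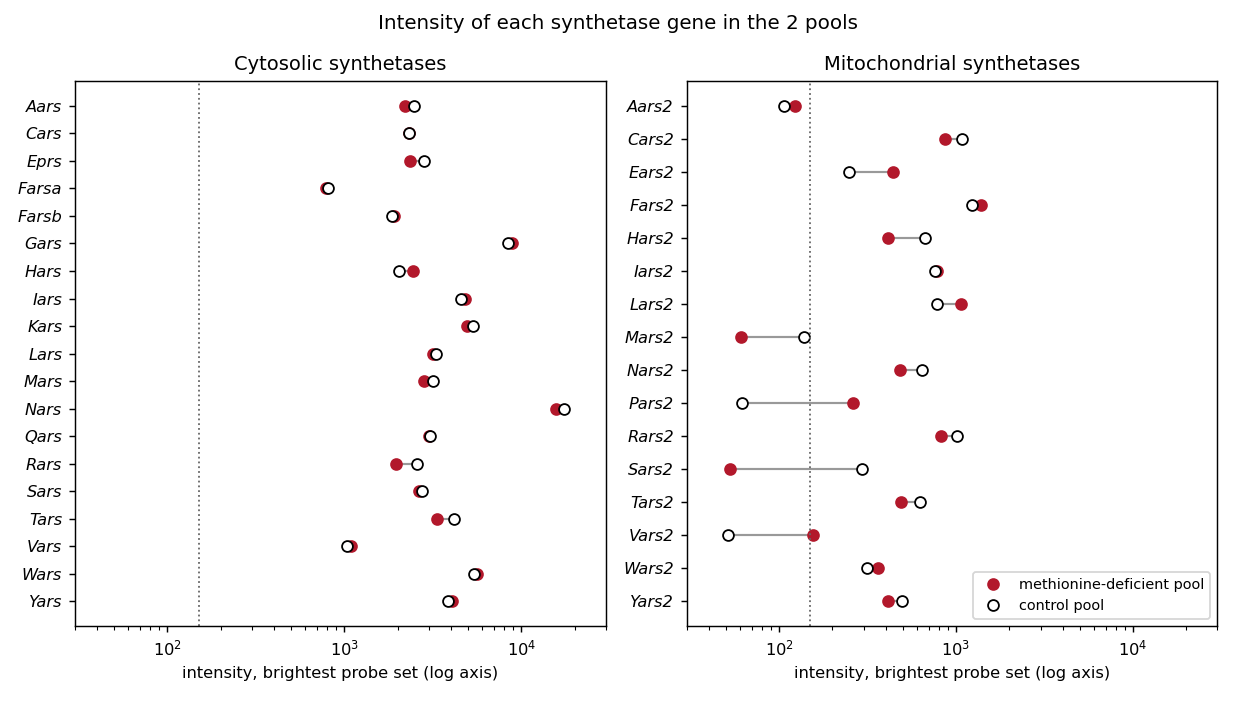
Intensity of the brightest probe set of each synthetase gene (log axis) in the methionine-deficient pool (filled points) and the control pool (open points), with the filter level of 150 as a dotted line. The points of the cytosolic genes nearly coincide, while 5 mitochondrial genes, among them Sars2 at 52.5 in the methionine-deficient pool and 293 in the control pool, have their mean below the line.

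Among the cytosolic enzymes, the arginine, threonine and glutamate-proline enzymes were lowest relative to control and the histidine enzyme was highest. Rars, the arginyl enzyme of the complex, had an intensity of 1960 in the methionine-deficient pool and 2589 in the control pool. This log2 difference of -0.40 was more than 2 times the probe-set spread of 0.18. Rars was the only synthetase gene past that size, 1 of 30, where 8.41% of all genes past the filter were. Tars, the free threonyl enzyme, had 3335 in the methionine-deficient pool and 4192 in the control pool (log2 difference -0.33, spread 0.18). Each of these rests on 1 probe set.

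Eprs makes a single protein that charges both glutamate and proline tRNA. It had 2337 in the methionine-deficient pool against 2806 in the control pool, a log2 difference of -0.26. Its other probe sets past the filter gave -0.12 and -0.01, so the size depends on the probe set. Hars, the histidyl enzyme, had 2430 in the methionine-deficient pool and 2026 in the control pool (log2 difference 0.26), but its second probe set gave -0.11. For Hars the probe sets thus disagree in direction.

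The methionyl enzyme Mars, which also charges the initiator tRNA that starts every protein, had 2824 in the methionine-deficient pool and 3165 in the control pool. Its log2 difference of -0.16 is within the spread of 0.18, on 1 probe set. Its mitochondrial counterpart Mars2 lay below the filter, with 61.0 in the methionine-deficient pool and 138 in the control pool. A second, dimmer Mars2 probe set went the other way, at 50.3 in the methionine-deficient pool and 22.3 in the control pool, so Mars2 had no settled direction.

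Small differences in 1 direction across probe sets were seen for several other enzymes. Nars, the asparaginyl enzyme, had 15698 in the methionine-deficient pool and 17436 in the control pool, and its 2 probe sets gave -0.15 and -0.24. Aars, the alanyl enzyme, had 2203 in the methionine-deficient pool and 2481 in the control pool (log2 difference -0.17), and its second probe set gave -0.45. The probe set annotated to Aars and also to Exosc6, which was left out of the gene value, gave -0.72, with 407 in the methionine-deficient pool and 672 in the control pool. Sars, the seryl enzyme, gave -0.05 and -0.06. In all of these every probe set past the filter was lower in the methionine-deficient pool.

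The brightest probe sets of the other cytosolic enzymes lay within 1 probe-set spread of 0. Gars, which serves both compartments, had 8809 in the methionine-deficient pool and 8453 in the control pool (log2 difference 0.06). Kars, the other gene of that kind, had 4954 in the methionine-deficient pool and 5361 in the control pool (-0.11). Wars, the tryptophanyl enzyme, which is known to respond to interferon, had 5603 in the methionine-deficient pool and 5381 in the control pool. Its 4 probe sets lay between -0.11 and 0.20, 3 of them higher.

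Lars, the leucyl enzyme, gave -0.06, the cysteinyl enzyme Cars -0.01, the tyrosyl enzyme Yars 0.07 and the valyl enzyme Vars 0.07. Iars, the isoleucyl enzyme, gave 0.08 and -0.23 in its 2 probe sets, the brighter one first. The phenylalanyl enzyme is built from 2 kinds of subunit, and Farsa gave -0.03 and Farsb 0.04. The other Farsb probe sets past the filter gave -0.27 and -0.49. Qars, the glutaminyl enzyme, gave -0.01 in its brightest probe set, but -0.47 and 0.59 in the next ones. That is the widest disagreement among probe sets past the filter of the cytosolic genes, and no direction can be given for Qars.

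**Figure D2:**
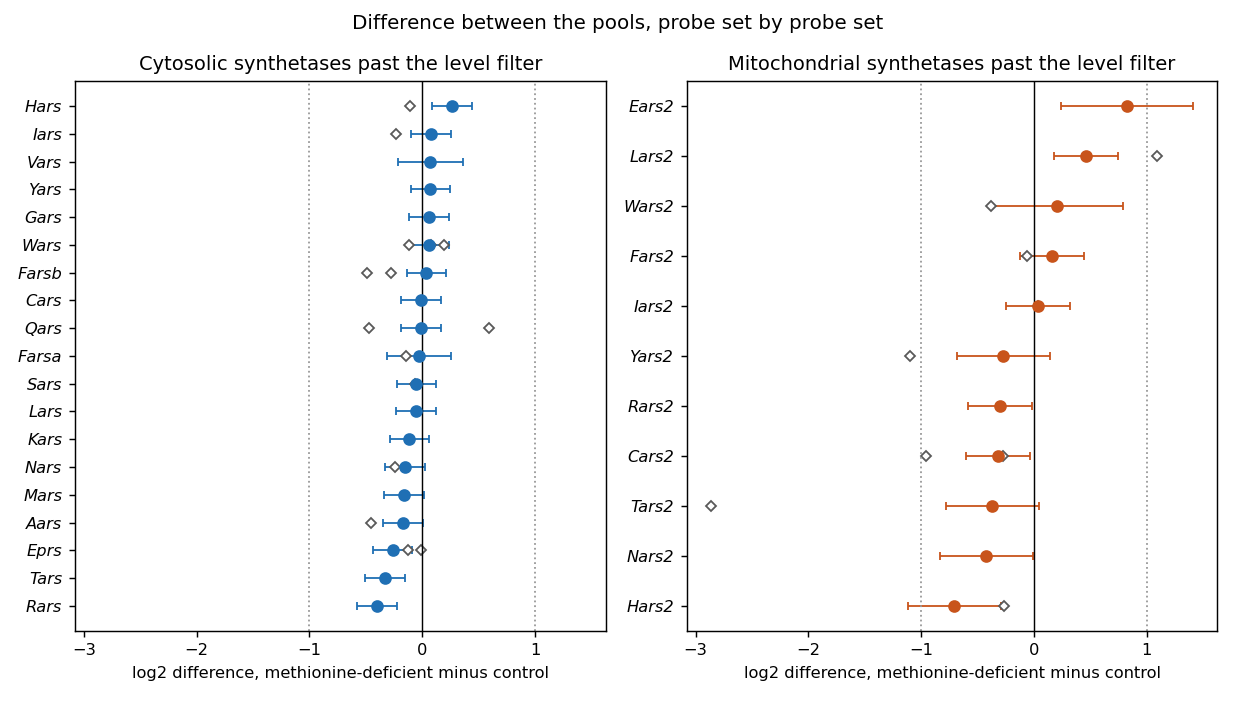
Log2 difference (methionine-deficient minus control) of each synthetase gene past the level filter; filled points are brightest probe sets with bars of 1 probe-set spread, open diamonds are the gene's other probe sets past the filter, and dotted lines mark 2-fold. Cytosolic points lie between -0.40 and 0.26, and the farthest diamond is that of Tars2 at -2.87.

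By role, 5 of the 7 measured enzymes of the multisynthetase complex (Eprs, Kars, Lars, Mars and Rars) were lower in every probe set past the filter, and 2 (Iars and Qars) had probe sets in both directions. Kars, Lars, Mars and Rars each rest on 1 probe set, and all of these but Rars lay within the spread of 0.18. In the brightest probe sets 6 of the 7 were lower, against 55.2% of all genes of the brightest bin, in which all 7 lie. The median over the brightest probe sets of the 7 was -0.11. Of the 12 cytosolic genes outside the complex 6 were lower in the brightest probe set, with a median of 0.01. No test of the difference between these sets is possible with 1 array per group. By enzyme class, the structural division of the synthetases by their catalytic fold, 5 of 9 class I genes and 6 of 9 class II genes were lower. The medians of class I and class II were -0.01 and -0.05. Eprs, which holds both classes, is in neither count. Of all genes, 55.2% were lower in the brightest bin and 50.1% in the second brightest, the bins in which these genes lie.

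Direction was compared with genes of like level, because bright genes as a whole leaned lower. Of all genes past the filter 50% were lower, but of those in the brightest bin 55.2% were. Cytosolic synthetase genes were lower in 12 of 19 cases, and in 11 of the 17 cases that lay in the brightest bin. A log2 difference of at least 0.32 was reached by 2 of these 17 (Rars and Tars), against 13.6% of all genes of that bin. Probe sets that did not set the gene value were lower in 12 of 15 cases for the cytosolic genes, with a median of -0.12, and in 7 of 9 cases for the mitochondrial genes, with a median of -0.27. Over all genes 48.9% of such probe sets were lower. Probe sets of 1 gene share its transcript and are not independent. Their differences exceeded 1 probe-set spread in 8 of the 15 cases and in 4 of the 9, against 34.4% of such probe sets over all genes.

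**Figure D3:**
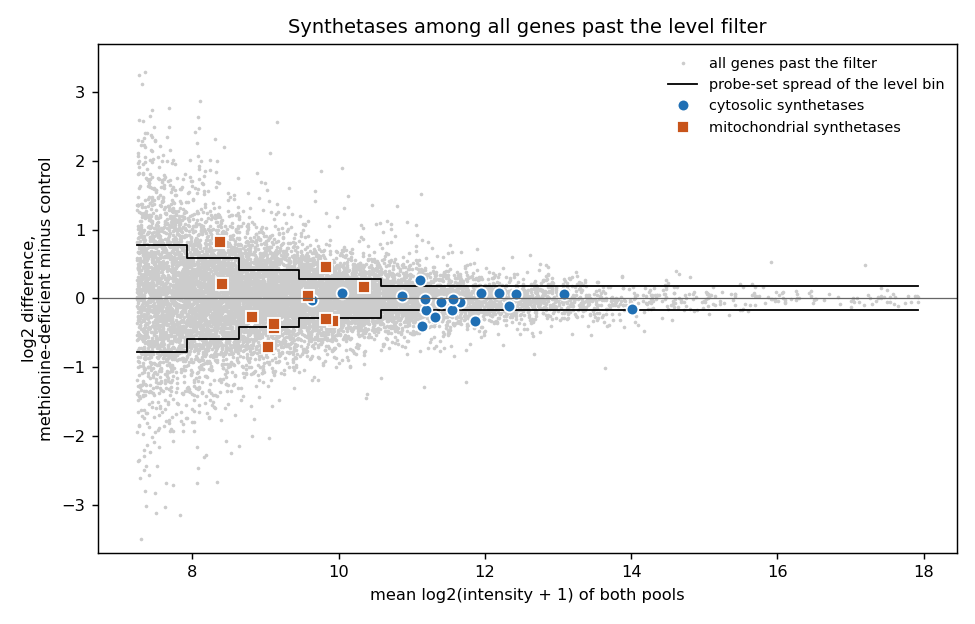
Log2 difference (methionine-deficient minus control) against the mean log2 intensity of both pools for every gene past the filter (grey), cytosolic synthetases (circles) and mitochondrial synthetases (squares); black steps mark 1 probe-set spread. Cytosolic genes sit at higher levels, where the spread is 0.18 or 0.28, and mitochondrial genes at lower ones.

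The comparison of compartments is bound up with level. Of the cytosolic genes 17 lay in the brightest bin and 2 in the next, whereas no mitochondrial gene lay in the brightest bin, 5 lay in the second, 4 in the middle, 2 in the second dimmest and 5 below the filter. In the second brightest bin, the only one that held both kinds, 1 of 2 cytosolic genes and 2 of 5 mitochondrial genes were lower, with medians of 0.02 and 0.03. The background there was 50.1% lower. In the middle bin all 4 mitochondrial genes (Hars2, Nars2, Tars2 and Yars2) were lower, against 50.1% of all genes there. The 2 genes of the second dimmest bin, Ears2 and Wars2, were higher in their brightest probe sets, where 47.7% of all genes were lower. The second Wars2 probe set gave -0.38, and the other Ears2 probe sets, all below the filter, were lower. The direction of these 2 genes is thus not settled.

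Hars2, the mitochondrial histidyl enzyme, had 410 in the methionine-deficient pool and 671 in the control pool. The log2 difference was -0.71 with a spread of 0.41, and the second probe set gave -0.27 in the same direction. Ears2, the mitochondrial glutamyl enzyme, was the highest of the group at 441 in the methionine-deficient pool and 248 in the control pool (log2 difference 0.83, spread 0.59). The other Ears2 probe sets, all below the filter, had log2 differences between -2.34 and -0.22, so its direction rests on 1 probe set.

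Lars2, the mitochondrial leucyl enzyme, had 1067 in the methionine-deficient pool and 776 in the control pool. The log2 differences of its probe sets past the filter were 0.46 and 1.09, both higher. Tars2, the mitochondrial threonyl enzyme, had 486 in the methionine-deficient pool and 629 in the control pool (log2 difference -0.37). A second Tars2 probe set had 59.7 in the methionine-deficient pool and 441 in the control pool, or -2.87, the largest difference of any synthetase probe set past the filter. Its dimmer value lies below the filter level, and the brighter probe set did not share the size.

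Cars2, the mitochondrial cysteinyl enzyme, was lower in all 3 of its probe sets, at -0.32, -0.27 and -0.96. Its brightest had 864 in the methionine-deficient pool and 1081 in the control pool, with a spread of 0.28. Yars2, the mitochondrial tyrosyl enzyme, gave -0.27 and -1.10. Nars2, the asparaginyl enzyme, gave -0.42 and the arginyl enzyme Rars2 -0.31, each from 1 probe set past the filter. The isoleucyl enzyme Iars2 gave 0.03 and 0.04. Fars2, the phenylalanyl enzyme, gave 0.16 and -0.06, and Wars2, the tryptophanyl enzyme, 0.20 and -0.38. None of the 11 mitochondrial genes exceeded 2 probe-set spreads, where 7.79% of all genes at their levels did. A size of 1 spread was exceeded by 6 of the 11 and by 4 of the 19 cytosolic genes, against 34.9% of all genes past the filter.

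The 5 genes below the filter were all mitochondrial, and 4 of them differed by over 2-fold, so that 4 of 35 synthetase genes did so without a filter, against 23.8% of all genes. Sars2, the seryl enzyme, had 52.5 in the methionine-deficient pool and 293 in the control pool. Pars2, the prolyl enzyme, went the other way, with 261 in the methionine-deficient pool and 61.7 in the control pool. Vars2, the valyl enzyme, had 156 in the methionine-deficient pool and 51.5 in the control pool, and Mars2 is given above. Aars2, the alanyl enzyme, had 123 in the methionine-deficient pool and 107 in the control pool. Probe sets this dim have no spread estimate here. A dim Farsa probe set had 199 in the methionine-deficient pool and 7.94 in the control pool, while the 2 Farsa probe sets past the filter were at -0.03 and -0.14.

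For 10 amino acids, an enzyme of each compartment passed the filter, giving 11 pairs of genes because the cytosolic phenylalanyl enzyme has 2 subunit genes. In the brightest probe sets both were lower in 4 pairs and higher in 3, and in 4 they differed in direction. Only 6 pairs were free of genes whose probe sets past the filter disagree in direction, and in these both were lower in 4 and opposite in 2. Of all genes past the filter 50% were lower. A gene with 1 probe set past the filter cannot show disagreement. The cysteine pair counts as both lower with Cars at -0.01. Of the 6 pairs, only arginine had both enzymes past 1 probe-set spread, and there each rests on 1 probe set. Arginine (Rars -0.40, Rars2 -0.31) and threonine (Tars -0.33, Tars2 -0.37) had both enzymes lower by similar amounts in their brightest probe sets. That Tars2 value lies within its spread of 0.41, and the other Tars2 probe set past the filter gave -2.87, so its size is unsettled. Leucine (Lars -0.06, Lars2 0.46) and tyrosine (Yars 0.07, Yars2 -0.27) had them opposite. For histidine (Hars 0.26, Hars2 -0.71) the direction of Hars is unsettled.

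The genes that work beside the synthetases fall into 5 roles, shown in the plot of the pathway genes. Of the 3 scaffold genes of the multisynthetase complex, Aimp1 had 3291 in the methionine-deficient pool and 2508 in the control pool (log2 difference 0.39, spread 0.18), on 1 probe set. Eef1e1 had -0.20. Aimp2 had 0.19 and -0.16 in its 2 probe sets.

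Of the partners of the mitochondrial enzymes, Mtfmt, which formylates the methionine on the initiator tRNA, had 507 in the methionine-deficient pool and 350 in the control pool (log2 difference 0.53, spread 0.41). The amidotransferase that turns glutamate into glutamine on its tRNA has 3 subunits, and Qrsl1 gave 0.09 and -0.33 in its 2 probe sets, Gatb 0.37 and Gatc -0.36. These subunits showed no common direction. The 5 proofreading and synthetase-like genes lay between -0.26 (Dtd1, which removes D-amino acids from tRNA) and 0.15 (Prorsd1), with a median of 0.00. Of these 5 genes 2 were lower, against 50% of all genes past the filter.

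The factors that carry charged tRNA to the ribosome had a median of 0.03, with 2 of 6 lower, where 50% of all genes past the filter were. Eef1a1, the main cytosolic carrier, had 156857 in the methionine-deficient pool and 157031 in the control pool, near the top of the range, where differences can be compressed. Tufm, the mitochondrial carrier, had a log2 difference of 0.07, and its second probe set past the filter gave 0.82. Tsfm, the exchange factor of that carrier, gave -0.36 with a spread of 0.28, the largest difference among the brightest probe sets of these factors.

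**Figure D4:**
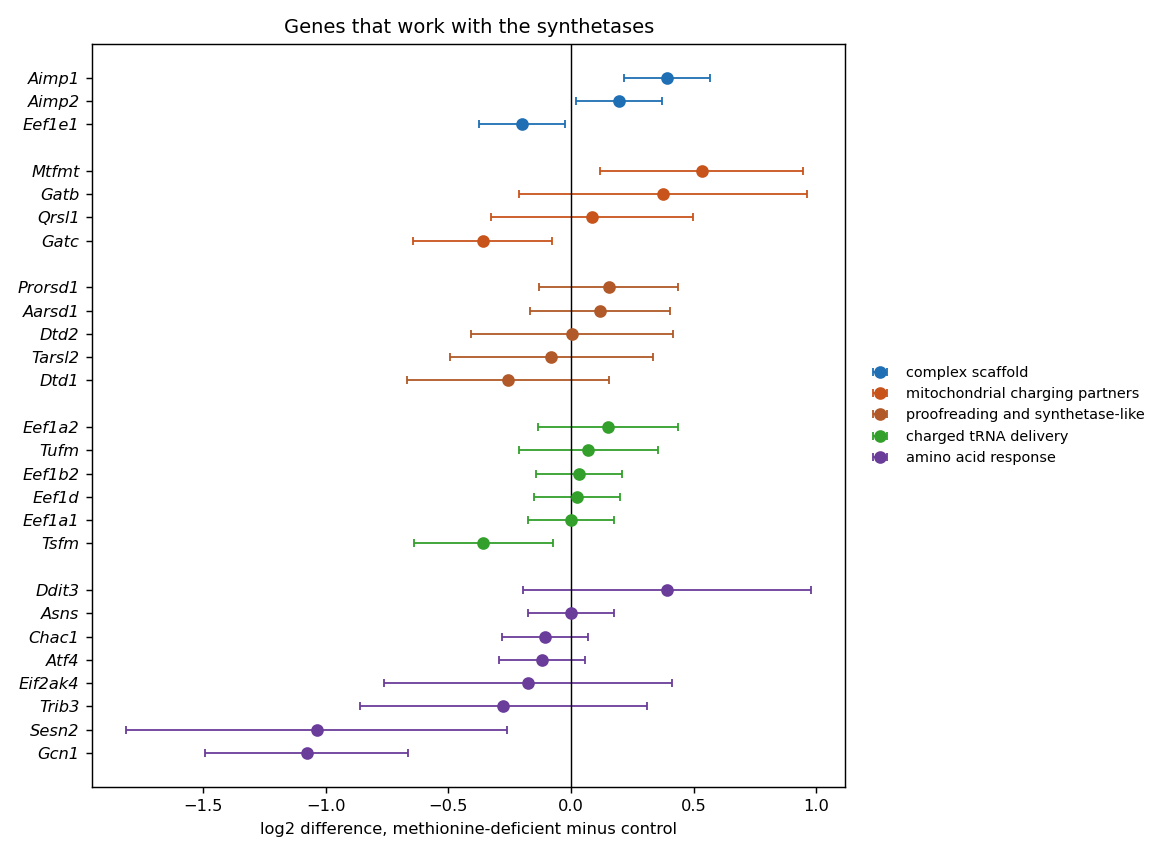
Log2 difference (methionine-deficient minus control) of the brightest probe set of genes that work with the synthetases, by role, with bars of 1 probe-set spread. Aimp1, Aimp2 and Mtfmt lie above 0 by more than their bars. Eef1e1, Gatc, Tsfm, Gcn1 and Sesn2 lie below 0 by more than theirs, and Gcn1 and Sesn2, near -1, lie farthest below.

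In their brightest probe sets, genes of the amino acid response numbered 7 lower and 1 higher, with a median of -0.15, beside the 50% of all genes that were lower. For 4 of the 7 (Eif2ak4, Gcn1, Atf4 and Trib3) another probe set past the filter was higher, so that count gives no settled direction. Eif2ak4, for the kinase itself, gave -0.18 and 0.21, with a spread of 0.59. Asns, the asparagine synthetase gene and a classical ATF4 target, gave 0.00 and -0.05, Atf4 itself -0.12 and 0.11, and the target Chac1 -0.11. Their brightest probe sets were each within the spread of 0.18. Gcn1, which helps activate the kinase, had 339 in the methionine-deficient pool and 717 in the control pool (log2 difference -1.08), but its second probe set gave 0.58. Sesn2, a stress-induced inhibitor of growth signalling, had 164 in the methionine-deficient pool and 337 in the control pool, on 1 probe set past the filter with a spread of 0.78. Trib3, a pseudokinase target, gave -0.28 and 1.10 in its 2 probe sets. Ddit3, for the transcription factor CHOP, was the 1 higher gene at 0.39, within its spread of 0.59.

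ATF4 binds its targets at a C/EBP-ATF response element, and the core TGATGNAA (N is any base) was searched on both strands from 250 bases before to 50 after each annotated start. Of all 32851 promoters in the RefSeq table of build GRCm38.p6, 3.97% held it, and of the 27025 genes 4.51% had it in at least 1 promoter. It was present in 5 of the 13 cytosolic synthetase genes in that table, among them Gars, Iars, Tars and Yars, and in 0 of the 14 mitochondrial ones. Of the 8 amino acid response genes 3 held it. Promoters of Cars, Hars, Lars, Nars, Rars, Vars, Wars, Hars2 and Pars2 were not used here, while Dars, which has no expression value here, was counted. In Iars and Yars the match lay after the start. A match is a description of the letters, not a bound site.

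The matches that lie before the start of Gars and Tars are given with those of Asns and Chac1, because these are the windows in which the letters of the response element can be compared. Each is 30 bases, given 5′ to 3′ on the strand of the gene, and capitals mark the core, read either way. Where the capitals read TTGCATCA or TTTCATCA, the core lies on the other strand.
Gars, chr6:55037960-55037989, plus strand: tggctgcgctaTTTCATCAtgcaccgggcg
Tars, chr15:11399659-11399688, minus strand: gggccaggagtcccgTTGCATCAgctggtt
Asns, chr6:7693214-7693243, minus strand: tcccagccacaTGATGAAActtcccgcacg
Chac1, chr2:119351038-119351067, plus strand: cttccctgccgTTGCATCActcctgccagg
Tars and Chac1 share the same 8 letters. The core begins 30 bases before the start in Gars, 15 in Tars, 23 in Asns and 193 in Chac1. Of the synthetase genes named with a match, Tars had a log2 difference of -0.33, on 1 probe set. Gars, Iars and Yars had 0.06, 0.08 and 0.07 in their brightest probe sets, each within the spread of 0.18. The second Iars probe set gave -0.23, so whether these genes moved together is not settled.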

How the data were processed

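Pancreas RNA of 2 pools was read on 1 Affymetrix 3' IVT array each, per the labels' protocols. The deposited values are linear intensities per probe set. How background was corrected and arrays were scaled is not given in the sources used here. Both arrays had a mean of 500.003 after trimming 2% at each end, so a common scaling appears likely, which would hide a difference in total RNA. No detection calls were used, so dim values may be background.

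Of 45101 probe sets, 34945 had 1 gene symbol in the platform annotation of the array, updated through gene identifiers. Probe sets with several symbols (932) stayed out of gene values. Intensities were taken to log2(value + 1) without rescaling. Genes may be named if they are members or belong to the fixed lists of complex scaffolds, charging partners, delivery factors, amino acid response genes and cell type markers. For these lists, counts, medians and the largest differences are given. Members, lists and the motif were chosen with earlier results of these data known. Eef1g, Pnlip, Plin1 and Cfd were not analysed here, and some items are not reported here. The spread and medians were tested on simulated data. Alternatives were median and quantile scaling, a pseudocount of 16, no filter or one at the 75th percentile, other ways of combining probe sets, leaving out Gars and Kars, and other fold sizes. Python 3.11.15, numpy 2.4.6 and pandas 2.3.3 were used.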

Additional observations from a re-analysis of the deposited data

How the results depend on the processing

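With 1 array per group, no alternative bears on the spread between mice or arrays. The directions of the cytosolic and mitochondrial medians and of their difference were kept under the 9 alternatives to scaling, pseudocount, filter, probe sets and the set of genes. None of these matched the compartments for level. In the second brightest bin, the only one with both kinds, the medians were 0.02 for cytosolic and 0.03 for mitochondrial genes. The cytosolic median (-0.03) lay between -0.13 and -0.03, and was -0.13 over other probe sets without the brightest and -0.11 without probe sets that can bind several transcripts. The mitochondrial median (-0.27) lay between -0.33 and -0.12. With no level filter it was -0.12 over 16 genes, and the cytosolic minus mitochondrial median shrank to 0.09, from 0.24. Subtracting the median of each array put all genes at a median of -0.05 and the cytosolic genes at -0.08. The number of genes lower was 12 of 19 cytosolic and 6 of 11 mitochondrial genes, against 50% of all genes. Over the same numbers of genes it was 13 and 7 with the mean over probe sets (all genes 49.5%). Subtracting each array's median also gave 13 and 7 (56.2%). Without probe sets that can bind several transcripts it was 14 and 6 (50.4%). Counts cannot be compared where the number of genes changes. They were 8 of 10 and 6 of 8 over other probe sets (49.6%), and 8 of 16 mitochondrial genes with no filter (49.4%). The count of synthetase genes past 2-fold (0 of 30) was 4 of 35 with no level filter, against 23.8% of all genes. It was 1 with the mean over probe sets, 2 without probe sets that can bind several transcripts and 3 over other probe sets. The share of all genes past 2-fold is not given for these last settings, so those counts have no background beside them. In the main setting 2 of 30 were past 1.5-fold, against 7.83% of all genes at the same levels. At a log2 difference of 0.32 there were 8, against 25.2%. Signal over background was not measured, which limits what the 5 genes below the filter can show.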
